A study of Mus musculus with 9 samples.

Results

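The genes of antigen presentation were followed in mouse peritoneal macrophages, the phagocytes washed from the abdominal cavity. The list holds 32 genes, found by symbol among the 55335 genes of the expression table. It has 4 MHC class II chains, 7 genes of class II loading, 11 class I and class I-like chains with B2m, 5 genes of class I peptide supply and 5 regulators. The symbols were listed by their known function and not by measured values, although earlier results from these libraries were known when the list was made. RNA-seq was done on 9 libraries in 3 groups of 3, and all cells had been given 1 µg/mL of lipopolysaccharide (LPS), a component of bacterial outer membranes that activates TLR4, for 4 h. The group LPS+CPZ was also given a compound at 100 µM that is named only by the abbreviation CPZ, the group LPS+EtOH was also given 5% ethanol, and the group LPS was given nothing more. The labels give no strain, and each library was made from a pool of 3 RNA samples. They do not say whether these came from separate animals or cultures, so p-values describe the spread between pools alone. Cells without LPS, and cells given only the solvent of CPZ, were not analysed here.

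MHC class II molecules carry peptides from the endosomes to the surface of macrophages, dendritic cells and B cells, where CD4+ T cells read them. An alpha and a beta chain assemble around the invariant chain, Cd74, which is cut in the endosome, and H2-DM then exchanges its remnant for a peptide while H2-DO holds H2-DM back. Class I molecules are made by nearly all cells, pair with beta-2 microglobulin and display cytosolic peptides, which the TAP transporter carries into the endoplasmic reticulum, to CD8+ T cells. Transcription of class II genes depends on the coactivator Ciita and that of class I genes on its relative Nlrc5. Both act through the complex of Rfx5, Rfxap and Rfxank on a conserved promoter element that includes an X box and a Y box.

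The promoters of 3 class II and 3 class I genes are shown because genes of both kinds can carry the X and Y boxes, while their levels moved in different ways in the data. The sequences are the 200 bases before the start of each gene in RefSeq's table for GRCm38.p6, printed 5′ to 3′ on the strand of the gene. The table holds 24 of the 32 genes. Capitals mark, on either strand, the core of an X box (ACNGATG), a Y box (ATTGG), the core of an interferon-stimulated response element or ISRE (GAAANNGAA), or the core of a kappaB site (GGGNNTTNC). The class II genes are the alpha chain of I-A, the beta chain of I-E and a beta chain of H2-DM.
H2-Aa (chr17:34287824-34288023, minus strand): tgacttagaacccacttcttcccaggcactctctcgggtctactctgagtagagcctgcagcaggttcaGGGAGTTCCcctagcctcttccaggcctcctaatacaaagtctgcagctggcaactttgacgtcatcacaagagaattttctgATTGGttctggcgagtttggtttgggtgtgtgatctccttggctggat
H2-Eb1 (chr17:34305667-34305866, plus strand): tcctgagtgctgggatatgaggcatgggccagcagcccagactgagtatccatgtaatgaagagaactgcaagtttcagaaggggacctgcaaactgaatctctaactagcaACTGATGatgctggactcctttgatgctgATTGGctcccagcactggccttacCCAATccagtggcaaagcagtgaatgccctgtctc
H2-DMb1 (chr17:34152991-34153190, plus strand): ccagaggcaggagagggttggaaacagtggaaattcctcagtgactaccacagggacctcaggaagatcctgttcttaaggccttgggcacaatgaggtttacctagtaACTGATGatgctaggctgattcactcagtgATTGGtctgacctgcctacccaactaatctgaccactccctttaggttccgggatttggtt
The class I genes are the shared light chain, a classical heavy chain and the nonclassical gene that rose most in LPS+CPZ.
B2m (chr2:122147487-122147686, plus strand): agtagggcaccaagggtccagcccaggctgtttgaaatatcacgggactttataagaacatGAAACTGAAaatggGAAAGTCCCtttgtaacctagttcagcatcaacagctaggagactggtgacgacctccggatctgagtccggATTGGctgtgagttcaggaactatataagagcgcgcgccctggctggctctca
H2-D1 (chr17:35262894-35263093, plus strand): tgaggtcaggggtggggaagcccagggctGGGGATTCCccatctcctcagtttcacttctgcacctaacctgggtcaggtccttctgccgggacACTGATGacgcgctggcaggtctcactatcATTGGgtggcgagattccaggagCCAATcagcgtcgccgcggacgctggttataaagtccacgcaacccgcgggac
H2-T22 (chr17:36042743-36042942, minus strand): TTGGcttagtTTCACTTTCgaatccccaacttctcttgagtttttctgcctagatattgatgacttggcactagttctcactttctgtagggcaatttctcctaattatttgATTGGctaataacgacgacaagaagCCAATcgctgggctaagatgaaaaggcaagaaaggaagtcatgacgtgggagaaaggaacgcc
The capitals that open the H2-T22 stretch are the end of a Y box that begins before it. The 250 bases before the start were searched, each motif on its own, so that motifs may overlap.

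An X box core with a Y box starting 25 to 35 bases after it was found in 59 of the 32851 promoters of the table (0.1796%), and 9 of the 59 belong to members. Of these, 4 are class II genes, H2-Eb1, H2-Eb2, H2-DMb1 and H2-DMb2, and 5 are class I genes, H2-D1, H2-Q4, H2-Q6, H2-Q7 and H2-M3. The distance was 29 or 30 bases in all 9. The spacing window was chosen with these promoters in view. Alone, the X box core was in 11 of the 24 promoters and in 8.31% of all promoters, and the Y box was in 21 of the 24 and in 33.85% of all. The ISRE core was in 4 of the 24, those of B2m, H2-T22, H2-T23 and Erap1, and in 7.129% of all promoters. The kappaB core was in 8 of the 24, those of B2m, H2-D1, H2-K1, H2-Q4, H2-Q6, H2-Q7, H2-Aa and H2-Oa, and in 13.001% of all promoters. A match is a description of the letters, not a site shown to be bound, and the reference genome's H2 alleles may not be those of the mice used.

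Values are in FPKM, which adjusts fragment numbers for gene length and library size, as deposited, so levels of different genes can be set side by side. Of the 32 genes, 31 reached 1 FPKM in at least 3 libraries and were tested by limma on log2(FPKM + 1), with Benjamini-Hochberg adjustment over all 11721 genes that did. Log2 changes on this scale understate the change of weakly expressed genes. Mr1, the class I-like molecule that presents vitamin B metabolites, was not tested. It stood at 0.419, 0.459 and 0.285 FPKM in LPS+CPZ and 0.0730, 0.0938 and 0.115 FPKM in LPS+EtOH, against 0.470, 0.349 and 0.474 FPKM in LPS. Its LPS+EtOH libraries lay below all 6 others.

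Libraries of 1 group resembled each other more than those of other groups, with correlations of log2 values across genes of 0.975 to 0.989 within groups and 0.736 to 0.885 between them (genes are not independent replicates). Most genes differed between groups, and the median log2 change of the tested genes was -0.33 for LPS+CPZ against LPS, -0.82 for LPS+EtOH against LPS and 0.55 for LPS+CPZ against LPS+EtOH. The 4 adult globin genes of red blood cells took 0.045 to 0.097% of all FPKM in LPS+CPZ and 0.172 to 0.221% in LPS+EtOH, against 11.5 to 29.4% in LPS. Macrophage markers were present in every group but did not move together. Of the 11, 8 were tested: 1 was higher and 6 lower in LPS+CPZ than in LPS, where 20.7% of all tested genes were higher and 48.4% lower. In LPS+EtOH against LPS, 2 were higher and 5 lower, where 19.0% of all were higher and 64.6% lower. Adgre1, which encodes F4/80, was at 79.0 to 105 FPKM in LPS+CPZ and 81.9 to 99.8 FPKM in LPS+EtOH, against 134 to 150.1 FPKM in LPS. Lyz2 averaged 217 ± 70.9 FPKM in LPS+CPZ and 226 ± 50.4 FPKM in LPS+EtOH, against 733 ± 97.7 FPKM in LPS, and Csf1r averaged 36.9 ± 8.90 FPKM in LPS+CPZ and 19.4 ± 5.79 FPKM in LPS+EtOH, against 24.9 ± 4.93 FPKM in LPS (SD, n = 3 each). Cd68, chosen here after its values were seen, averaged 405 ± 67.2 FPKM in LPS+CPZ and 363 ± 34.2 FPKM in LPS+EtOH, against 55.5 ± 11.6 FPKM in LPS. The 3 that were too low to be tested were Gata6, the factor of resident peritoneal macrophages, Mertk and Ccr2. The summed level of the 9 neutrophil markers was 6287 to 6766 FPKM in LPS+CPZ and 43391 to 47974 FPKM in LPS+EtOH, against 3709 to 5307 FPKM in LPS, and that of the 11 macrophage markers was 1047 to 1215 FPKM in LPS+CPZ and 2662 to 2989 FPKM in LPS+EtOH, against 1595 to 2054 FPKM in LPS. Most of the macrophage sum in LPS+EtOH was Cd14, the LPS co-receptor, at 406 ± 16.95 FPKM in LPS+CPZ and 2177 ± 221 FPKM in LPS+EtOH, against 907 ± 148 FPKM in LPS, so the sum does not stand for the list. Most of the neutrophil sum was S100a8 and S100a9. S100a9 averaged 3208 ± 99.4 FPKM in LPS+CPZ and 33420 ± 2070 FPKM in LPS+EtOH, against 3369 ± 550.5 FPKM in LPS. All 9 had a higher mean in LPS+EtOH than in LPS, but in LPS+CPZ the list was split. There Ly6g averaged 273.9 FPKM against 16.9 FPKM in LPS, while Cxcr2 (3.81 against 11.35 FPKM) and Ltf (1.40 against 4.32 FPKM) were lower. The part of these transcripts in the results below was not tested, and in bulk RNA fewer cells of a type and less RNA per cell cannot be told apart. Because the median gene shifted, changes are also given after median-ratio scaling, which sets that shift near 0.

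Class II expression was lower in both groups with an added agent. In FPKM as deposited all 11 genes had their lowest mean with ethanol, and for 10 of them the difference between the agents passed the test. All 11 class II chain and loading genes fell in LPS+CPZ against LPS, where 48.4% of all tested genes were lower, with a median log2 change of -1.36. In LPS+EtOH against LPS, where 64.6% of all tested genes were lower, all 11 fell as well, with a median of -2.72. These comparisons share the LPS libraries. Between the agents, 10 of the 11 were higher in LPS+CPZ than in LPS+EtOH, against 61.4% of all tested genes, with a median log2 change of 1.33. After median-ratio scaling all 11 were still lower than in LPS with either agent, against 32.5% of all genes in LPS+CPZ and 40.1% in LPS+EtOH. The order between the agents depended more on scaling. After median-ratio scaling H2-DMa (0.24, limma adjusted p = 0.208) and H2-Oa (0.16, limma adjusted p = 0.309) were no longer called between them. Ifi30 was then lower in LPS+CPZ (-0.43, limma adjusted p = 0.0366), and the others stayed higher, where 33.9% of all genes were.

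The chains that form the class II molecules of macrophages and B cells were among the most abundant members in LPS. H2-Aa, the alpha chain of I-A, was at 60.7, 75.4 and 89.7 FPKM in LPS+CPZ and 26.4, 19.04 and 15.3 FPKM in LPS+EtOH, against 201, 321 and 247 FPKM in LPS. The groups did not overlap, and the LPS libraries were highest and the LPS+EtOH libraries lowest. H2-Aa fell in LPS+EtOH against LPS (log2 change -3.60 ± 0.23, SE, adjusted p = 1.89e-07 by limma) and in LPS+CPZ against LPS (log2 change -1.75 ± 0.23, SE, adjusted p = 7.00e-05 by limma). Its partner H2-Ab1, the beta chain of I-A, was at 61.6, 70.9 and 87.1 FPKM in LPS+CPZ and 34.5, 27.1 and 22.6 FPKM in LPS+EtOH, against 154, 223 and 191 FPKM in LPS. H2-Eb1, the beta chain of I-E, was at 66.9, 89.1 and 97.6 FPKM in LPS+CPZ and 37.2, 30.7 and 21.9 FPKM in LPS+EtOH, against 228, 341 and 303 FPKM in LPS. Both showed the order of H2-Aa without overlap, with log2 changes of -1.36 and -1.77 in LPS+CPZ against LPS, and of -2.72 and -3.25 in LPS+EtOH against LPS. Between the agents, H2-Aa was higher in LPS+CPZ than in LPS+EtOH (log2 change 1.86 ± 0.23, SE, adjusted p = 3.82e-05 by limma), where median-ratio scaling gave 1.06. H2-Eb2, another I-E beta chain, was weak in all groups, at 2.63, 2.38 and 2.89 FPKM in LPS+CPZ and 0.596, 0.345 and 0.182 FPKM in LPS+EtOH, against 5.47, 9.58 and 10.5 FPKM in LPS. All 3 of its LPS+EtOH libraries were below 1 FPKM.

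Cd74, the invariant chain, was the member with the highest level after B2m in LPS. It stood at 384, 438 and 576 FPKM in LPS+CPZ and 200.4, 190.0 and 159.7 FPKM in LPS+EtOH, against 924, 1301 and 1227 FPKM in LPS. Its groups did not overlap, and it fell in LPS+CPZ (log2 change -1.31 ± 0.19, SE, adjusted p = 0.000147 by limma) and in LPS+EtOH (log2 change -2.63 ± 0.19, SE, adjusted p = 4.12e-07 by limma), each against LPS. The H2-DM genes, which encode the peptide exchanger, fell too. H2-DMb2 was at 10.8, 10.5 and 13.7 FPKM in LPS+CPZ and 3.59, 2.55 and 3.55 FPKM in LPS+EtOH, against 29.98, 35.8 and 45.5 FPKM in LPS. Its near copy H2-DMb1 was at 3.31, 2.97 and 4.74 FPKM in LPS+CPZ and 1.98, 0.853 and 0.862 FPKM in LPS+EtOH, against 11.8, 12.1 and 17.1 FPKM in LPS. In both, every LPS library was above every library of the other groups. Of their transcripts, 12.9% of H2-DMb2 and 13.7% of H2-DMb1 in stretches of 100 bases are shared between the pair, so part of their reads could not be assigned by sequence. H2-DMa, the alpha chain, changed less, with log2 changes of -0.76 in LPS+CPZ and -1.58 in LPS+EtOH, each against LPS. It overlaps Brd2 on the opposite strand. The H2-DO genes, which encode the inhibitor of H2-DM and are known chiefly from B cells, were at 2.30 ± 0.266 FPKM in LPS+CPZ and 1.09 ± 0.173 FPKM in LPS+EtOH, against 4.52 ± 1.19 FPKM in LPS for H2-Oa (SD, n = 3 each). H2-Ob averaged 5.26 ± 1.14 FPKM in LPS+CPZ and 1.84 ± 0.523 FPKM in LPS+EtOH, against 11.96 ± 2.42 FPKM in LPS. Both fell with either agent (H2-Ob: log2 change -1.05 in LPS+CPZ, limma adjusted p = 0.000838, and -2.19 in LPS+EtOH, limma adjusted p = 1.91e-06).

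Ifi30, the thiol reductase GILT that opens disulfide bonds in the endosome, did not follow the graded order of the other class II genes. Its levels were 14.5, 16.2 and 17.9 FPKM in LPS+CPZ and 14.8, 12.1 and 10.7 FPKM in LPS+EtOH, against 62.1, 90.2 and 94.4 FPKM in LPS. The LPS libraries were far above both other groups, while the LPS+CPZ and LPS+EtOH libraries overlapped. Its log2 change between the agents was 0.35 with an interval of -0.04 to 0.75 (limma adjusted p = 0.0910), and it turned to -0.43 after median-ratio scaling, with limma adjusted p = 0.0366. It was the largest fall of the 11 in LPS+CPZ against LPS (log2 change -2.25 ± 0.18, SE, adjusted p = 2.40e-06 by limma). Within each library the ratio of Ifi30 to Cd74, which no single factor applied to a whole library can alter, was 0.0353 ± 0.00370 in LPS+CPZ and 0.0682 ± 0.00530 in LPS+EtOH, against 0.0712 ± 0.00510 in LPS (SD, n = 3 each). The LPS+CPZ libraries lay below all others in this ratio, and the LPS+EtOH and LPS libraries overlapped.

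**Figure D1:**
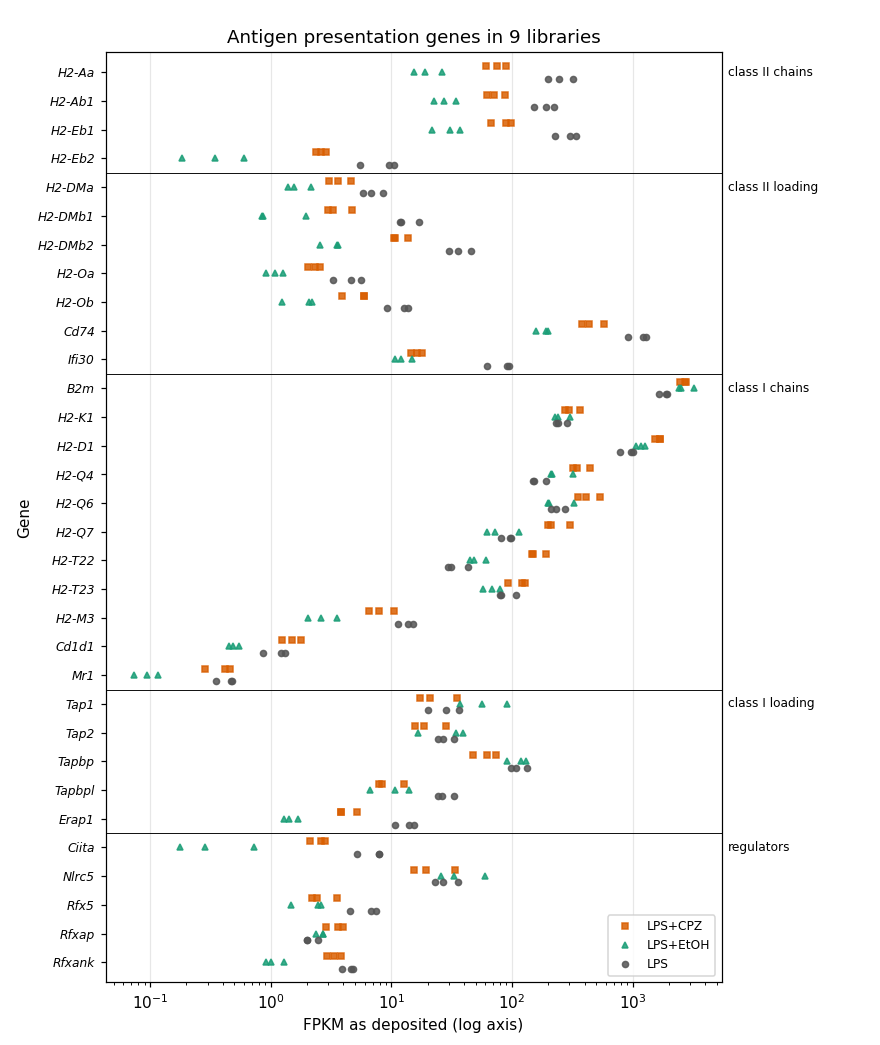
Level of each of the 32 genes in each of the 9 libraries, in FPKM on a log axis, with squares for LPS+CPZ, triangles for LPS+EtOH and circles for LPS, ordered by role. Of the 11 class II genes, all have their LPS circles right of the others, while among the class I chains only H2-M3 has that order without overlap.

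B cells and dendritic cells carry abundant class II, and most of their tested markers were lower than in LPS as well. Of all tested genes, 48.4% were lower in LPS+CPZ than in LPS, 64.6% were lower in LPS+EtOH than in LPS, and 61.4% were higher in LPS+CPZ than in LPS+EtOH. The counts of cell markers here and below stand beside these shares. Of the 14 B cell markers, all tested, 13 were lower in LPS+CPZ than in LPS and 14 were lower in LPS+EtOH than in LPS, and 12 were higher in LPS+CPZ than in LPS+EtOH. Their summed level was 1239 to 1458 FPKM in LPS+CPZ and 151 to 208 FPKM in LPS+EtOH, against 1601 to 2289 FPKM in LPS, and none was listed at 0 in any library. Most of that sum was Ighm, the IgM heavy chain, which averaged 1160.0 ± 89.2 FPKM in LPS+CPZ and 119.5 ± 18.2 FPKM in LPS+EtOH, against 1249 ± 218 FPKM in LPS and was the marker not called in LPS+CPZ against LPS (log2 change -0.09, limma adjusted p = 0.644). Cd79a, a chain of the B cell receptor, was at 42.4, 53.5 and 58.2 FPKM in LPS+CPZ and 17.6, 14.2 and 10.6 FPKM in LPS+EtOH, against 134, 187 and 211 FPKM in LPS. Its order over the groups was that of H2-Aa, without overlap. Ms4a1, which encodes CD20, was at 6.60, 9.51 and 6.83 FPKM in LPS+CPZ and 1.57, 1.06 and 1.03 FPKM in LPS+EtOH, against 43.1, 50.8 and 68.1 FPKM in LPS. Pax5, the factor that fixes B cell identity, averaged 4.89 ± 1.04 FPKM in LPS+CPZ and 1.42 ± 0.248 FPKM in LPS+EtOH, against 28.01 ± 4.85 FPKM in LPS (SD, n = 3 each). Both genes had the order of Cd79a, without overlap.

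Of the 9 dendritic cell markers, 6 could be tested, and 4 of these (Zbtb46, Cd209a, Ccr7 and Dpp4) were lower in each agent's group than in LPS, while Xcr1 and Itgax were higher in LPS+CPZ. In LPS+EtOH, 4 of 6 is near the 64.6% of all tested genes that were lower. All 6 were higher in LPS+CPZ than in LPS+EtOH. The sum of the 9 was 95.8 to 140 FPKM in LPS+CPZ and 28.8 to 30.5 FPKM in LPS+EtOH, against 136 to 201 FPKM in LPS. Most of it was Ccr7 and Itgax, so the sum does not stand for the list. Ccr7 averaged 71.5 FPKM in LPS+CPZ and 12.4 FPKM in LPS+EtOH, against 132.4 FPKM in LPS. Itgax averaged 38.2 FPKM in LPS+CPZ and 15.8 FPKM in LPS+EtOH, against 16.2 FPKM in LPS. The defining factor Zbtb46 was at 0.380, 0.531 and 0.475 FPKM in LPS+CPZ and 0.241, 0.189 and 0.138 FPKM in LPS+EtOH, against 3.39, 5.02 and 4.12 FPKM in LPS. Flt3, the receptor that defines the lineage, stayed below 1 FPKM in all 9 libraries, and Clec10a was listed at 0 in 2 of them. The ratio of H2-Aa, H2-Ab1 and H2-Eb1 to Cd79a and Cd79b, both of the B cell receptor, was 2.09, 2.11 and 2.25 in LPS+CPZ and 3.31, 3.59 and 3.06 in LPS+EtOH, against 2.20, 2.62 and 1.85 in LPS. LPS+CPZ and LPS overlapped in this ratio, and the LPS+EtOH libraries were above all others. This depends on the B cell markers chosen. In LPS+CPZ against LPS the log2 change was -1.75 for Cd79a and -1.45 for Cd79b. It was larger for Ms4a1 (-2.66) and Cd22 (-2.33) and near 0 for Ighm (-0.09). The ratios were chosen after values had been seen.

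Markers of T and NK cells had the same graded order. Of the 12, 10 were tested, and all 10 were lower than in LPS in LPS+CPZ and in LPS+EtOH, while 9 were higher in LPS+CPZ than in LPS+EtOH. Their sum was 17.8 to 30.5 FPKM in LPS+CPZ and 1.67 to 3.55 FPKM in LPS+EtOH, against 84.3 to 115.5 FPKM in LPS. Cd3e, of the T cell receptor complex, was at 0.690, 1.72 and 0.547 FPKM in LPS+CPZ and 0, 0.0601 and 0.00627 FPKM in LPS+EtOH, against 2.78, 3.48 and 3.60 FPKM in LPS, and 7 of the 12 markers were listed at 0 in at least 1 library. Of the 6 mast cell markers, 4 were lower in LPS+CPZ (48.4% of all tested genes) and 3 in LPS+EtOH (64.6% of all), each against LPS. Their sum was 13.9 to 36.2 FPKM in LPS+CPZ and 23.2 to 61.1 FPKM in LPS+EtOH, against 50.1 to 91.2 FPKM in LPS. The part of B cells, dendritic cells, T and NK cells and mast cells in the class II and class I results was not tested.

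**Figure D2:**
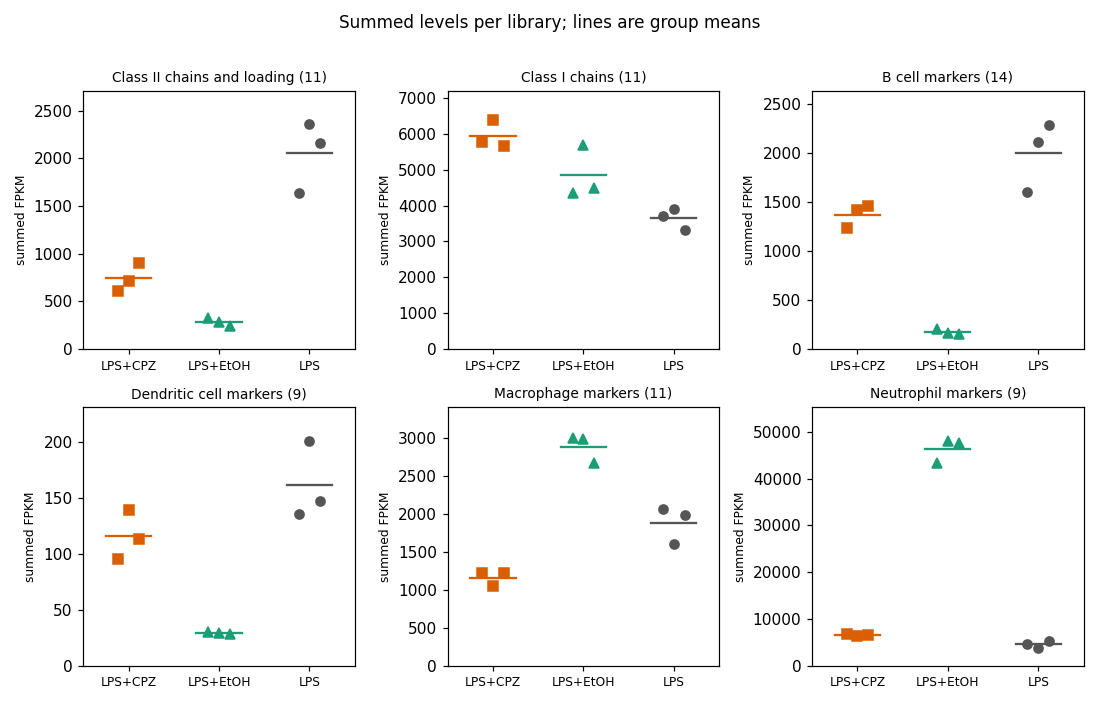
Summed FPKM of 6 gene lists in each library (points) with group means (lines), in LPS+CPZ, LPS+EtOH and LPS from left to right. The class II and B cell sums are lowest in LPS+EtOH and highest in LPS, the class I sum has its highest mean in LPS+CPZ, at 5673 to 6390 FPKM, and the neutrophil sum is highest in LPS+EtOH.

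The class I chains did not share the uniform fall of class II. In LPS+CPZ against LPS, 6 of the 10 tested chains rose, where 20.7% of all tested genes were higher, 1 fell, where 48.4% of all were lower, and their median log2 change was 0.69 against -0.33 over all genes. In LPS+EtOH against LPS, 4 of the 10 were higher, where 19.0% of all tested genes were, 2 were lower, where 64.6% of all were, and the median was 0.00 against -0.82 over all genes. Those 4 calls depend on scaling and on a single library: none was left without LPS+EtOH replicate 2, and 2 were left without LPS replicate 3. With the globin genes left out none was higher and 5 were lower, while 1605 of the 12112 genes then tested were higher and 8802 lower. Under TPM scaling, which brought Mr1 into the test, none of the 11 was higher and 4 were lower, while 2480 of 14979 genes were higher and 9529 lower. After median-ratio scaling 8 of the 10 were higher, where 39.9% of all genes were. In LPS+CPZ the count was 9 after median-ratio scaling, where 28.6% of all genes were higher, and 4 with the globin genes left out, where 1683 of 12112 genes were. Between the agents, 8 of the 10 were higher in LPS+CPZ and none lower, where 61.4% of all genes were higher and 15.2% lower, which changed to 4 higher and 2 lower after median-ratio scaling, against 33.9% and 33.0% of all genes.

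B2m, the light chain shared by class I molecules, was the most abundant member in every group. Its levels were 2792, 2702 and 2493 FPKM in LPS+CPZ and 2437, 3210.0 and 2503 FPKM in LPS+EtOH, against 1913, 1928 and 1672 FPKM in LPS. Both agents' libraries were above every LPS library, and they overlapped each other. The log2 change was 0.54 in LPS+CPZ (limma adjusted p = 0.0130) and 0.56 in LPS+EtOH (limma adjusted p = 0.00822), each against LPS. In LPS+CPZ it was 0.16 with the globin genes left out (limma adjusted p = 0.340) and 0.25 after quantile scaling (limma adjusted p = 0.135), neither past the threshold. In LPS+EtOH it was 0.43 without replicate 2 of that group and 0.13 with the globin genes left out, neither past the threshold, and -0.05 after quantile scaling. H2-D1, a classical class I heavy chain, was at 1549, 1696 and 1676 FPKM in LPS+CPZ and 1076, 1269 and 1169 FPKM in LPS+EtOH, against 1009, 968 and 785 FPKM in LPS. The LPS+CPZ libraries were above all others, and H2-D1 rose in LPS+CPZ against LPS (log2 change 0.84 ± 0.15, SE, adjusted p = 0.000549 by limma). In LPS+EtOH its log2 change of 0.35 passed narrowly (limma adjusted p = 0.0468). It did not pass without LPS replicate 2 or 3 or without any single LPS+EtOH library, at 0.24 to 0.41, and it turned to -0.07 with the globin genes left out. H2-K1, the other classical heavy chain measured, was at 273, 369.9 and 296 FPKM in LPS+CPZ and 240.3, 304 and 229 FPKM in LPS+EtOH, against 233, 286 and 240.0 FPKM in LPS. All 3 groups overlapped, and the interval of its log2 change was -0.06 to 0.67 in LPS+CPZ and -0.34 to 0.39 in LPS+EtOH, each against LPS. The calls of H2-K1 depended on the processing. In LPS+EtOH against LPS it was higher after median-ratio scaling (1.21, limma adjusted p = 0.0001035). There it was lower after quantile scaling (-0.48, limma adjusted p = 0.0192) and with the globin genes left out (-0.40, limma adjusted p = 0.0333). In LPS+CPZ against LPS it was higher after median-ratio scaling (0.66, limma adjusted p = 0.00805) and with the replicate number as a block (0.30, limma adjusted p = 0.0401). Its sign in LPS+CPZ turned with the globin genes left out (-0.07).

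The nonclassical class I genes differed among themselves, and H2-T22 rose most. H2-T22, whose protein is recognised by some gamma delta T cells, was at 149, 193 and 148 FPKM in LPS+CPZ and 48.1, 60.5 and 44.7 FPKM in LPS+EtOH, against 31.1, 43.4 and 29.5 FPKM in LPS. Every LPS+CPZ library was above every library of the other groups. Its log2 change was 2.21 ± 0.18 SE in LPS+CPZ against LPS (limma adjusted p = 3.16e-06) and 1.66 against LPS+EtOH (limma adjusted p = 1.85e-05). In LPS+EtOH against LPS it was 0.56 (limma adjusted p = 0.0151), and the call did not hold with the globin genes left out (0.14), when LPS replicate 3 was left out (0.45) or when LPS+EtOH replicate 2 was (0.43). H2-Q7, a Qa-2 chain, was at 209, 301 and 199 FPKM in LPS+CPZ and 72.4, 115 and 61.8 FPKM in LPS+EtOH, against 81.9, 98.96 and 96.4 FPKM in LPS. Its LPS+CPZ libraries stood apart above the others (log2 change 1.32 ± 0.23, SE, adjusted p = 0.000473 by limma, against LPS), and those of LPS+EtOH and LPS overlapped. The neighbouring H2-Q6 averaged 434 ± 96.1 FPKM in LPS+CPZ and 243 ± 73.4 FPKM in LPS+EtOH, against 240.4 ± 31.4 FPKM in LPS. It rose in LPS+CPZ (log2 change 0.84, adjusted p = 0.00667 by limma), a call lost with the globin genes left out (0.46, limma adjusted p = 0.0622). H2-Q4, which encodes Qb-1, was at 345, 448 and 318 FPKM in LPS+CPZ and 213, 323 and 212 FPKM in LPS+EtOH, against 148, 190.0 and 154 FPKM in LPS. It rose in LPS+CPZ against LPS (log2 change 1.16, adjusted p = 0.000429 by limma), and its change in LPS+EtOH (log2 change 0.58, adjusted p = 0.0189 by limma) was not past the threshold without LPS replicate 1 (0.51) or LPS+EtOH replicate 2 (0.38), with the globin genes left out (0.16) or after quantile scaling (0.18). These genes have near copies: in stretches of 100 bases, 12.9% of the H2-Q7 transcript, 10.8% of H2-Q6 and 9.38% of H2-T22 are shared with other genes, so their values are uncertain.

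Not all of the other class I-like genes were high in LPS+CPZ. H2-T23, the Qa-1 chain read by NK cell receptors, was at 93.6, 128 and 121 FPKM in LPS+CPZ and 57.2, 79.4 and 68.1 FPKM in LPS+EtOH, against 80.04, 109 and 80.7 FPKM in LPS. LPS+CPZ overlapped LPS, and every LPS+EtOH library was below every LPS library. Its log2 change was 0.34 in LPS+CPZ (limma adjusted p = 0.111) and -0.39 in LPS+EtOH (limma adjusted p = 0.0624), each against LPS. After median-ratio scaling H2-T23 was higher in LPS+EtOH (0.79, limma adjusted p = 0.00258) and in LPS+CPZ (0.70, limma adjusted p = 0.00769). In LPS+EtOH it was lower after quantile scaling (-0.44, limma adjusted p = 0.0343) and with the globin genes left out (-0.81, limma adjusted p = 0.000591). With the replicate number as a block it was lower in LPS+EtOH (limma adjusted p = 0.0114) and higher in LPS+CPZ (limma adjusted p = 0.0266). H2-M3, which presents N-formyl peptides of bacteria, was at 6.59, 10.6 and 7.92 FPKM in LPS+CPZ and 2.62, 3.54 and 2.03 FPKM in LPS+EtOH, against 11.4, 15.2 and 13.8 FPKM in LPS. It fell without overlap in both groups, by 1.96 on the log2 scale in LPS+EtOH (limma adjusted p = 3.32e-06) and by 0.64 in LPS+CPZ (limma adjusted p = 0.0127). The call in LPS+CPZ did not hold after median-ratio scaling (-0.30) or without LPS+CPZ replicate 1 (-0.50). Cd1d1, which presents lipids to NKT cells, was near the detection filter, at 1.49, 1.77 and 1.24 FPKM in LPS+CPZ and 0.551, 0.486 and 0.450 FPKM in LPS+EtOH, against 1.22, 0.862 and 1.32 FPKM in LPS. It was lowest in LPS+EtOH, where its change against LPS (log2 change -0.51, adjusted p = 0.00207 by limma) was 0.00 after median-ratio scaling and turned to 0.28 after quantile scaling (limma adjusted p = 0.0289), and 14.6% of its transcript is shared with Cd1d2 in stretches of 100 bases.

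**Figure D3:**
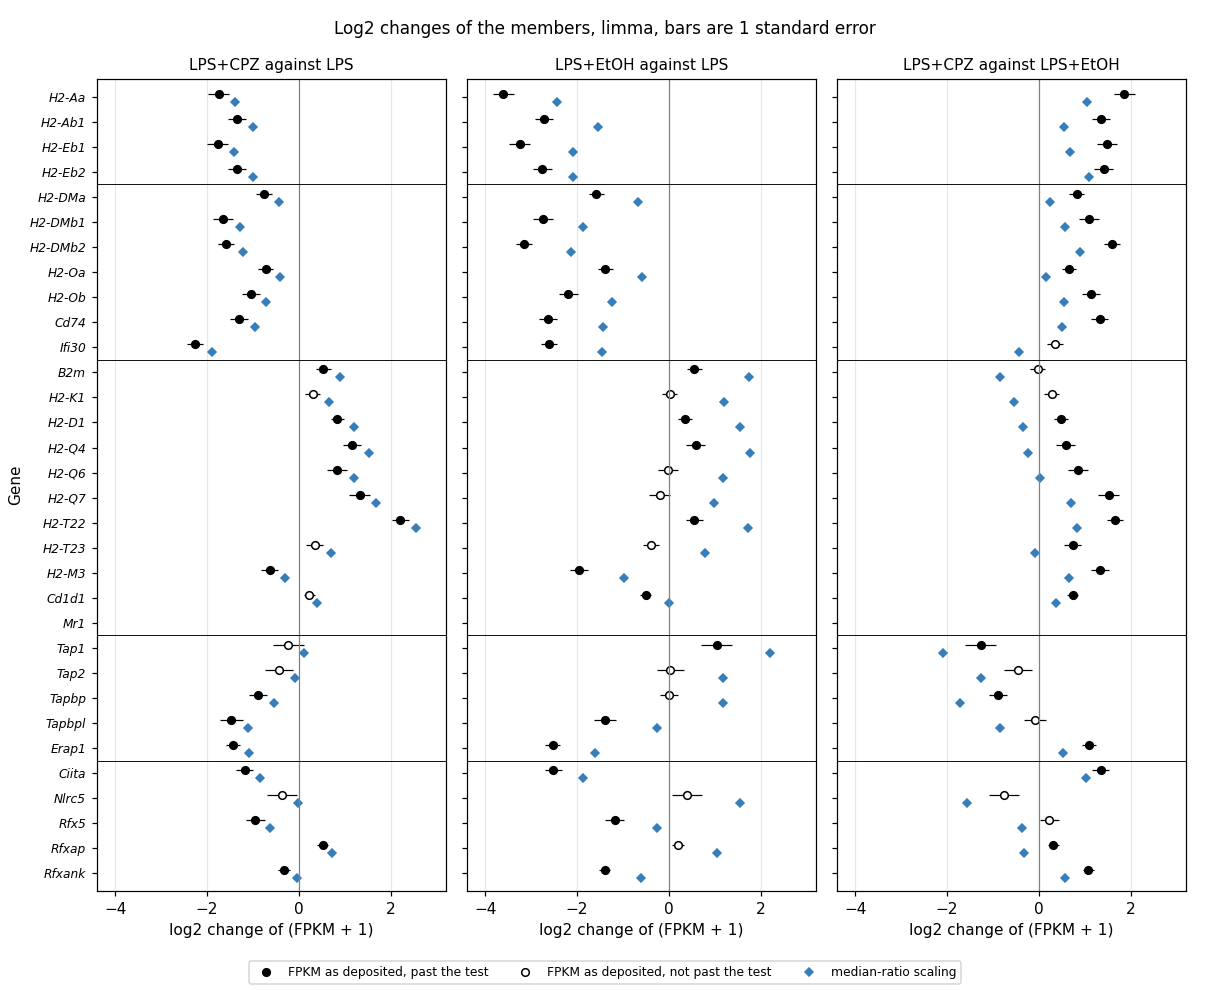
Log2 change of each tested gene in LPS+CPZ against LPS, LPS+EtOH against LPS and LPS+CPZ against LPS+EtOH, with circles and bars of 1 standard error for FPKM as deposited (filled where limma's adjusted p was under 0.05) and diamonds for median-ratio scaling. Every class II gene is left of 0 against LPS under both scalings. Of the class I chains in LPS+EtOH against LPS, H2-M3 is left of 0 under both scalings, Cd1d1 is left of it as deposited and at 0.00 after median-ratio scaling, and the others are right of 0 after median-ratio scaling.

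The genes that supply class I peptides did not move as a block. Of the 5, none rose and 3 fell in LPS+CPZ against LPS, where 20.7% of all tested genes were higher and 48.4% lower. In LPS+EtOH against LPS 1 rose and 2 fell, where 19.0% of all were higher and 64.6% lower. Tap1, a subunit of the peptide transporter, was at 20.9, 35.2 and 17.3 FPKM in LPS+CPZ and 37.3, 90.5 and 56.4 FPKM in LPS+EtOH, against 28.4, 36.4 and 20.04 FPKM in LPS. Its spread was wide: LPS+EtOH libraries were above all others, and LPS+CPZ overlapped LPS. It was higher in LPS+EtOH than in LPS (log2 change 1.04 ± 0.34, SE, adjusted p = 0.0149 by limma) and lower in LPS+CPZ than in LPS+EtOH (log2 change -1.27 ± 0.34, SE, adjusted p = 0.00602 by limma). The change against LPS was not past the threshold without LPS replicate 3 (0.82), without LPS+EtOH replicate 2 (0.72) or with the globin genes left out (0.63). Tap1 overlaps Psmb9 on the opposite strand. The libraries were strand-specific per the labels, but the labels do not say whether the counting used strand. Tap2, the other subunit, averaged 21.03 ± 6.64 FPKM in LPS+CPZ and 30.3 ± 12.01 FPKM in LPS+EtOH, against 28.03 ± 4.70 FPKM in LPS, and its groups overlapped in all 3 comparisons. Its calls depended on scaling. After median-ratio scaling it was higher in LPS+EtOH than in LPS (1.18, limma adjusted p = 0.00566) and lower in LPS+CPZ than in LPS+EtOH (-1.27, limma adjusted p = 0.00528). With the globin genes left out it was lower in LPS+CPZ than in LPS (-0.79, limma adjusted p = 0.0239).

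Tapbp, or tapasin, which holds class I chains at the transporter, was at 47.5, 61.8 and 73.8 FPKM in LPS+CPZ and 91.3, 131 and 120.0 FPKM in LPS+EtOH, against 108, 134 and 98.4 FPKM in LPS. The LPS+CPZ libraries were below all others (log2 change -0.90, adjusted p = 0.00208 by limma, against LPS), and LPS+EtOH and LPS overlapped, with an interval of -0.43 to 0.44 for the log2 change. That comparison turned on the scaling: Tapbp was higher in LPS+EtOH after median-ratio scaling (1.18, limma adjusted p = 0.000379) and lower with the globin genes left out (-0.42, limma adjusted p = 0.0388). Tapbp overlaps Zbtb22 on the same strand. Tapbpl, which encodes the peptide editor TAPBPR, averaged 9.61 ± 2.63 FPKM in LPS+CPZ and 10.4 ± 3.59 FPKM in LPS+EtOH, against 28.1 ± 4.50 FPKM in LPS. It fell in LPS+CPZ (log2 change -1.47, adjusted p = 0.000337 by limma) and in LPS+EtOH (log2 change -1.39, adjusted p = 0.000289 by limma), though the fall in LPS+EtOH shrank to -0.27 after median-ratio scaling (limma adjusted p = 0.353). Erap1, the aminopeptidase that trims peptides to length, was at 3.85, 5.21 and 3.85 FPKM in LPS+CPZ and 1.28, 1.70 and 1.42 FPKM in LPS+EtOH, against 10.6, 15.5 and 13.99 FPKM in LPS. The groups stood apart in the order of the class II genes, and Erap1 fell in both (LPS+CPZ -1.43, limma adjusted p = 2.14e-05, and LPS+EtOH -2.53, limma adjusted p = 1.75e-07). Erap1 overlaps Cast on the opposite strand.

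The class II coactivator fell with either agent, while calls for the class I coactivator depended on the processing. Ciita, the master regulator of class II transcription, was at 2.13, 2.82 and 2.60 FPKM in LPS+CPZ and 0.731, 0.176 and 0.285 FPKM in LPS+EtOH, against 5.20, 7.94 and 7.95 FPKM in LPS. Its groups did not overlap, and its LPS+EtOH libraries were all below 1 FPKM. It fell in LPS+CPZ (log2 change -1.18 ± 0.19, SE, adjusted p = 0.000244 by limma) and in LPS+EtOH (log2 change -2.52 ± 0.19, SE, adjusted p = 4.47e-07 by limma), each against LPS. Nlrc5, its class I counterpart, was at 19.3, 33.8 and 15.4 FPKM in LPS+CPZ and 26.1, 59.4 and 33.3 FPKM in LPS+EtOH, against 26.8, 35.9 and 23.2 FPKM in LPS. Its 3 groups overlapped, with log2 changes of -0.37 (interval -1.09 to 0.36) in LPS+CPZ and 0.39 (interval -0.33 to 1.12) in LPS+EtOH, each against LPS, and neither passed the test as deposited with group as the only term. After median-ratio scaling the change of Nlrc5 in LPS+EtOH against LPS was 1.55 (limma adjusted p = 0.00198). The ratio of Ciita to Nlrc5 within a library was 0.111, 0.0833 and 0.169 in LPS+CPZ and 0.0280, 0.00300 and 0.00850 in LPS+EtOH, against 0.194, 0.221 and 0.343 in LPS. The libraries of the 3 groups did not overlap in this ratio. Ciita overlaps Dexi on the opposite strand.

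The 3 subunits of the RFX complex did not share a direction. Rfx5, the DNA-binding subunit, was at 2.22, 3.56 and 2.42 FPKM in LPS+CPZ and 1.47, 2.49 and 2.64 FPKM in LPS+EtOH, against 4.55, 7.42 and 6.77 FPKM in LPS. All LPS libraries were above all others, and it fell in LPS+CPZ (log2 change -0.95, adjusted p = 0.00208 by limma) and in LPS+EtOH (log2 change -1.18, adjusted p = 0.000308 by limma), the change in LPS+EtOH being -0.25 after median-ratio scaling and not past the threshold. Rfxank, the ankyrin-repeat subunit, was at 2.91, 3.85 and 3.37 FPKM in LPS+CPZ and 1.29, 1.003 and 0.920 FPKM in LPS+EtOH, against 3.92, 4.65 and 4.82 FPKM in LPS. Its LPS+EtOH libraries were lowest (log2 change -1.40, adjusted p = 1.91e-06 by limma, against LPS). Its change in LPS+CPZ (log2 change -0.32, adjusted p = 0.0437 by limma) was -0.03 after median-ratio scaling, was 0.06 after quantile scaling, and was not past the threshold without LPS replicate 2 or 3, LPS+EtOH replicate 2 or 3, or LPS+CPZ replicate 1 or 3 (-0.32 to -0.24). Rfxap, the third subunit, was at 2.90, 4.001 and 3.62 FPKM in LPS+CPZ and 2.72, 2.72 and 2.36 FPKM in LPS+EtOH, against 1.98, 2.45 and 2.004 FPKM in LPS. It rose in LPS+CPZ against LPS (log2 change 0.51, adjusted p = 0.00391 by limma) without overlap, and with the globin genes left out this was 0.25 and not past the threshold (limma adjusted p = 0.0886). Rfxank overlaps Nr2c2ap on the opposite strand.

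Ratios of class II to class I within a library are not altered by a factor applied to the whole library, though quantile scaling can alter them, and those in FPKM separated all 3 groups. The sum of H2-Aa, H2-Ab1 and H2-Eb1 over that of H2-K1 and H2-D1 was 0.104, 0.114 and 0.139 in LPS+CPZ and 0.0745, 0.0488 and 0.0427 in LPS+EtOH, against 0.469, 0.706 and 0.723 in LPS. The lowest LPS library was above all 6 others, and the lowest LPS+CPZ library was above every LPS+EtOH library. Cd74 over B2m averaged 0.177 ± 0.0485 in LPS+CPZ and 0.0684 ± 0.0122 in LPS+EtOH, against 0.630 ± 0.131 in LPS (SD, n = 3 each). These ratios are given as a description, without a test. Within class I, H2-Q7 over H2-Q6 was 0.545 ± 0.0587 in LPS+CPZ and 0.339 ± 0.0227 in LPS+EtOH, against 0.386 ± 0.0254 in LPS, with the LPS+CPZ libraries highest. Tap1 over Tapbp was 0.414 ± 0.169 in LPS+CPZ and 0.524 ± 0.149 in LPS+EtOH, against 0.246 ± 0.0368 in LPS, and LPS+CPZ overlapped both other groups.

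**Figure D4:**
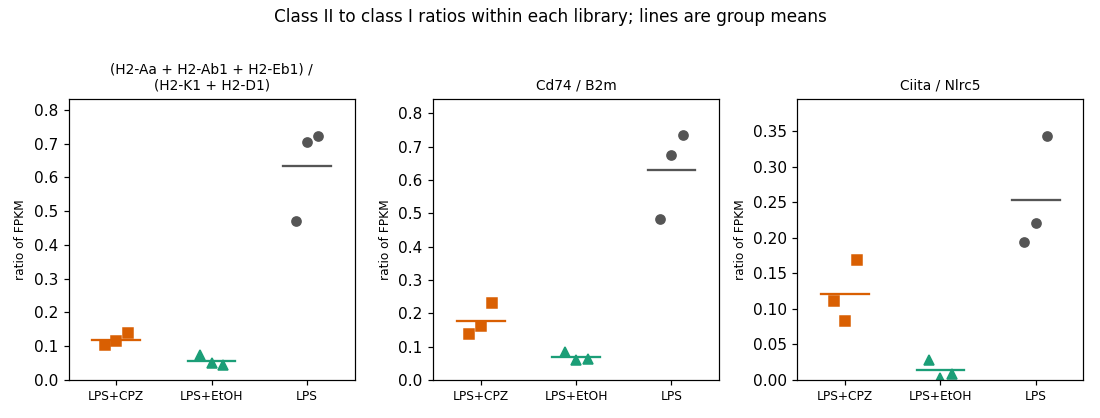
Ratio of summed class II to class I chains, of Cd74 to B2m and of Ciita to Nlrc5 in each library (points), with group means (lines), in LPS+CPZ, LPS+EtOH and LPS from left to right. In each panel the LPS libraries are highest and the LPS+EtOH libraries lowest, without overlap.

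Within groups, many class I pathway genes were highest in the same replicate, as were some genes outside the members. Of the 31 tested members, 13 (41.9%) had their highest value in replicate 2 of all 3 groups, against 6.90% (809) of the 11721 tested genes. These were 7 of the 10 class I chains (H2-K1, H2-M3, H2-Q4, H2-Q6, H2-Q7, H2-T22 and H2-T23), 4 of the 5 class I supply genes (Tap1, Tap2, Tapbpl and Erap1) and the regulators Nlrc5 and Rfxap. None of the 11 class II genes was among them, and no member was highest in replicate 1 or in replicate 3 of all groups. Tap1 is an example, with replicate 2 at 35.2 FPKM in LPS+CPZ and 90.5 FPKM in LPS+EtOH, against 36.4 FPKM in LPS. Rfxap has the pattern by a narrow margin, at 2.7236 against 2.7225 FPKM in LPS+EtOH. The pattern was not particular to the members. It was also seen in Psmb8, Psmb9, Psme1 and Psme2, and in the mast cell markers Cpa3, Mcpt4, Tpsb2, Cma1 and Fcer1a, though not Kit. Mcpt4 was at 10.4 FPKM in LPS+CPZ, 10.5 FPKM in LPS+EtOH and 28.7 FPKM in LPS in replicate 2. The pattern was noticed in these values, and the labels do not say what the replicate numbers share.

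**Figure D5:**
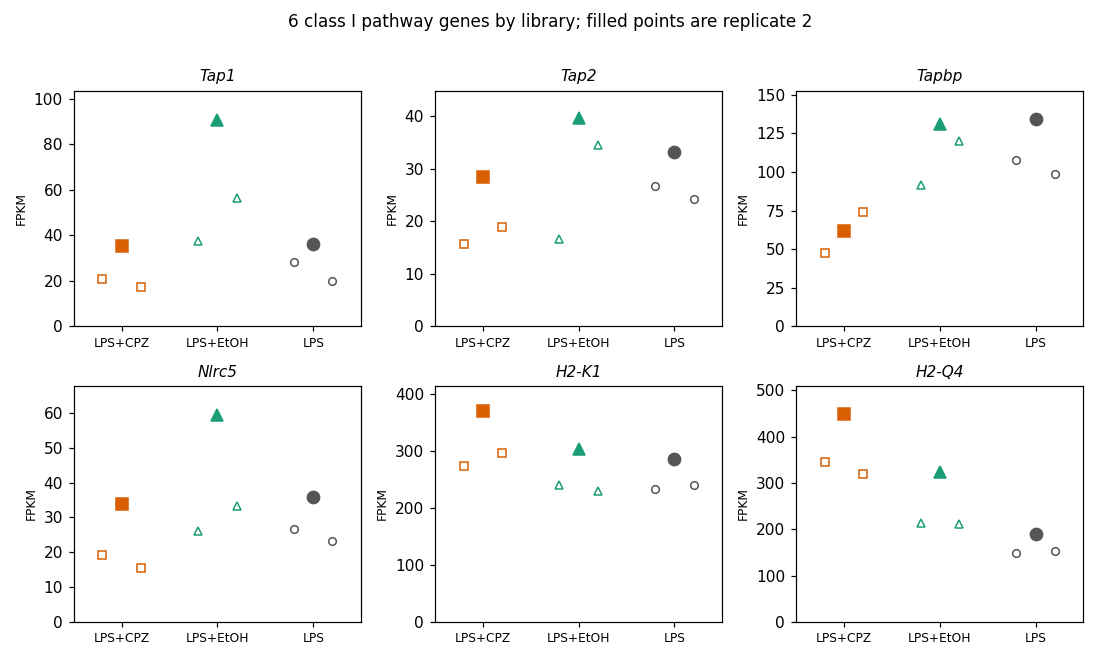
Levels of Tap1, Tap2, Tapbp, Nlrc5, H2-K1 and H2-Q4 in each library, in FPKM, with large filled points for replicate 2 and small open points for the other replicates, in LPS+CPZ, LPS+EtOH and LPS from left to right. Replicate 2 is highest in every group for all but Tapbp, whose highest LPS+CPZ value, 73.8 FPKM, is in replicate 3.

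Other genes of the pathways were taken from 3 lists, and limma adjusted p-values are given. Their counts stand beside 20.7% of all tested genes higher and 48.4% lower in LPS+CPZ against LPS, 19.0% higher and 64.6% lower in LPS+EtOH against LPS, and between the agents 61.4% higher and 15.2% lower in LPS+CPZ. Of 8 genes of the immunoproteasome and of the chaperones of the endoplasmic reticulum, none rose and 4 fell in LPS+CPZ against LPS, and 1 rose and 5 fell in LPS+EtOH against LPS. The median log2 changes were -0.67 and -1.12 in these comparisons. The proteasome activator genes Psme1 (-1.31, adjusted p = 2.84e-05) and Psme2 (-1.15, adjusted p = 0.000169) were lower in LPS+CPZ. In LPS+EtOH the chaperones Pdia3 (-1.51, adjusted p = 8.93e-07) and Canx (-1.42, adjusted p = 1.42e-06) were lower, and Psmb9, the immunoproteasome subunit that overlaps Tap1, was higher (0.97, adjusted p = 0.0172). After median-ratio scaling Pdia3 was at -0.35 (adjusted p = 0.0151) and Canx at -0.25, a call lost (adjusted p = 0.0686), and with the globin genes left out the call of Psmb9 was lost (0.60, adjusted p = 0.0954). Between the agents 3 were higher in LPS+CPZ and 3 lower. Psme2 (-1.54, adjusted p = 2.04e-05) and Psmb8 (-0.81, adjusted p = 0.00708) were lower in LPS+CPZ than in LPS+EtOH, and Canx (1.63, adjusted p = 1.94e-06) and Pdia3 (1.27, adjusted p = 8.98e-06) were higher.

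The endosomal list held 9 genes, of which 6 rose and 2 fell in LPS+CPZ against LPS, and 5 rose and 3 fell in LPS+EtOH against LPS. Its summed level was 3364 to 3897 FPKM in LPS+CPZ and 2398 to 2576 FPKM in LPS+EtOH, against 692 to 911 FPKM in LPS. The lysosomal protease Ctsd was at 2469, 2180.1 and 2467 FPKM in LPS+CPZ and 1602, 1569 and 1719.7 FPKM in LPS+EtOH, against 273, 309 and 209.7 FPKM in LPS. It rose in LPS+CPZ (log2 change 3.18, adjusted p = 1.58e-07) and in LPS+EtOH (2.64, adjusted p = 1.70e-07, both by limma). Ctsb, another cathepsin, averaged 618 ± 69.1 FPKM in LPS+CPZ and 454 ± 5.002 FPKM in LPS+EtOH, against 129 ± 23.2 FPKM in LPS, without overlap between either agent and LPS. Ctss, the protease that cuts the invariant chain, moved the other way, at 91.9, 112 and 116 FPKM in LPS+CPZ and 30.9, 43.7 and 28.2 FPKM in LPS+EtOH, against 211, 239.7 and 194 FPKM in LPS. It fell in LPS+CPZ (log2 change -1.004, adjusted p = 0.000465 by limma) and in LPS+EtOH (log2 change -2.63, adjusted p = 2.41e-07 by limma). Sppl2a, the membrane protease that clears the last invariant chain remnant, fell in LPS+CPZ (log2 change -0.72, adjusted p = 0.000661 by limma, but -0.365 and limma adjusted p = 0.0524 after median-ratio scaling), and the endosomal protease Lgmn fell in LPS+EtOH (log2 change -2.78, adjusted p = 2.05e-06 by limma). Between the agents, 8 of the 9 were higher in LPS+CPZ and none lower, with Lgmn (log2 change 2.63, adjusted p = 8.56e-06 by limma) and Ctss (log2 change 1.63, adjusted p = 1.57e-05 by limma) first by p.

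Of 18 upstream genes of interferon signalling and of the factors that bind these promoters, 1 rose and 13 fell in LPS+CPZ against LPS, and 5 rose and 7 fell in LPS+EtOH against LPS. Ifngr1, the ligand-binding chain of the interferon-gamma receptor, was at 9.36, 10.6 and 7.72 FPKM in LPS+CPZ and 6.69, 7.18 and 8.35 FPKM in LPS+EtOH, against 24.6, 22.3 and 24.2 FPKM in LPS. It fell in LPS+CPZ (log2 change -1.28, adjusted p = 1.38e-05 by limma) and in LPS+EtOH (log2 change -1.56, adjusted p = 1.14e-06 by limma). Irf7, an amplifier of type I interferon, fell in LPS+CPZ (log2 change -2.20, adjusted p = 1.31e-05 by limma), and the kinase gene Jak1 rose (log2 change 0.30, adjusted p = 0.0358 by limma). With the globin genes left out Jak1 was at -0.07 (limma adjusted p = 0.630), with the sign turned and the call lost. In LPS+EtOH, Nfyc, a subunit of the factor that binds the Y box, fell (log2 change -1.42, adjusted p = 6.68e-07 by limma), whereas the type I interferon receptor chain Ifnar2 (log2 change 1.02, adjusted p = 9.09e-05 by limma) and the myeloid factor Spi1 (log2 change 0.92, adjusted p = 0.000249 by limma) rose. The other subunits of the Y box factor did not fall with Nfyc. Nfyb rose (log2 change 0.64, adjusted p = 0.000456 by limma), and Nfya was not called (log2 change 0.015, adjusted p = 0.959 by limma). Between the agents, 3 of the 18 were higher in LPS+CPZ, first Nfyc (log2 change 0.90, adjusted p = 3.94e-05 by limma) and Irf8 (log2 change 1.40, adjusted p = 0.00306 by limma, against 0.82 and limma adjusted p = 0.0627 after median-ratio scaling), and 11 were lower, first Ifngr2 (log2 change -1.69, adjusted p = 1.02e-05 by limma) and Spi1 (log2 change -1.49, adjusted p = 1.47e-05 by limma).

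Counted together, the 31 tested members had 7 rises and 18 falls in LPS+CPZ against LPS, where 20.7% of all tested genes rose and 48.4% fell, with a median log2 change of -0.72. In LPS+EtOH against LPS they had 5 rises and 18 falls, where 19.0% of all rose and 64.6% fell, with a median of -1.38. In LPS+CPZ against LPS+EtOH, 22 were higher and 2 lower, where 61.4% of all were higher and 15.2% lower, with a median of 0.82. The groups did not overlap for 25 of the 31 in LPS+CPZ against LPS (72.9% of all tested genes), for 24 in LPS+EtOH against LPS (84.8%) and for 23 between the agents (79.0%). These shares of members without overlap are close to those of all genes. In GENCODE M21, 20 of the 32 members lie on chromosome 17, where both directions of change were found. The 9 genes with paired X and Y boxes took both directions too: in LPS+CPZ against LPS the 4 class II genes and H2-M3 fell, while H2-D1, H2-Q4, H2-Q6 and H2-Q7 rose.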

How the data were processed

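Bulk RNA-seq values for 9 libraries of mouse peritoneal macrophages were taken as deposited, as FPKM per gene, so that the depth of each library is unknown and no counting error is given. Libraries were strand-specific and made from pools of 3 RNA samples, per the labels' protocols. FastQC 0.11.2, STAR and StringTie, the last ones without versions, are named by the submitters' processing notes. The build they name, hg38, is human and the gene IDs are murine, so no coordinates are given for the deposited genes. FPKM is relative to all fragments of a library, so a few abundant transcripts can depress the rest.

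The test covered the 11721 of 55335 genes that reached 1 FPKM in 3 or more libraries. Values were taken as log2(FPKM + 1) and fitted with limma 3.58.1 in R 4.3.3 (all 9 libraries, group as the only term, eBayes with trend, two-sided). Adjustment was by Benjamini-Hochberg over all tested genes, with a threshold of 0.05. Intervals are 95% intervals of the fitted log2 change. The fit was tested on simulated data. Members, lists and tests were chosen with earlier results of these data known. Lists are described by counts and medians, without a list test. All members are accounted for. From the 3 pathway lists, the text names the 2 genes with the smallest adjusted p in each direction per comparison, plus most of the defining markers of other cell types (1 is not reported here). Some other markers, such as Cd14, Cd68 and Ighm, and the pathway genes Nfya and Nfyb were named after their values were seen.

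Alternatives were pseudocounts of 0.1 and 5, scaling to TPM, by median ratios and by quantiles, no filter on low values and a filter of 5 FPKM, 4 globin genes left out, eBayes without trend, the compared groups alone, a block for the replicate number, calls at a log2 change of 1 or more, and leaving out each library. Promoters came from RefSeq's table for GRCm38.p6. Overlapping genes and transcript stretches of 100 bases shared with other genes came from GENCODE M21. Tables were made with pandas 2.3.3 and numpy 2.4.6 in Python 3.11.15, and plots with matplotlib 3.10.9.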

Additional observations from a re-analysis of the deposited data

How the results depend on the processing

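Against LPS, the direction of the class II calls held under every alternative run. In LPS+EtOH against LPS 10 to 11 class II genes were lower and none higher over the 22 settings, and in LPS+CPZ against LPS 9 to 11 were lower and none higher. The smaller counts came from the filter of 5 FPKM, which left 10 class II genes, and from asking for a log2 change of at least 1. Between the agents 7 to 11 were higher and up to 1 lower. The direction did not hold there for Ifi30, which was lower in LPS+CPZ after median-ratio scaling (-0.43, limma adjusted p = 0.0366).

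Counts of rises were less stable. Of all members, 5 were higher in LPS+EtOH than in LPS, against 2 with no filter, 1 with TPM, 13 with median-ratio scaling, 0 with the globin genes left out and 1 at a log2 change of at least 1, and 0 to 4 when one library was left out. The count was 0 without LPS+EtOH replicate 2 and 2 without LPS replicate 3. The 7 rises in LPS+CPZ against LPS became 4 with the globin genes left out and 3 at a log2 change of at least 1, with 7 to 8 when one library was left out. In LPS+CPZ against LPS+EtOH, the 22 higher became 14 at a log2 change of at least 1 (20 to 23 with one library left out), and the 2 lower became 9 with median-ratio scaling, 4 with quantile scaling and 1 at a log2 change of at least 1 (2 to 4 with one library left out, 4 without LPS+EtOH replicate 1). The 18 falls against LPS stayed at 16 to 18 in LPS+CPZ and 18 to 19 in LPS+EtOH with one library left out. The cause of these changes was not tested.

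Log2 changes reversed sign as follows in LPS+EtOH against LPS. With the globin genes left out they were -0.40 for H2-K1, -0.0685 for H2-D1, -0.38 for Tap2, -0.42 for Tapbp, -0.0166 for Nlrc5 and -0.10 for Rfxap. With TPM they were -0.0875 for H2-K1, -0.0774 for Tap2 and -0.11 for Tapbp. With quantile scaling they were -0.0501 for B2m, -0.48 for H2-K1, -0.20 for Tapbp and 0.29 for Cd1d1. With median-ratio scaling they were 1.17 for H2-Q6, 0.98 for H2-Q7, 0.79 for H2-T23 and 0.0015 for Cd1d1. With one library left out the changes ranged over -0.10 to 0.11 for H2-K1, -0.25 to 0.11 for H2-Q6, -0.20 to 0.40 for Tap2 and -0.10 to 0.15 for Tapbp. In LPS+CPZ against LPS, H2-K1 (-0.0719) and H2-T23 (-0.0281) reversed with the globin genes left out, Tap1 (0.12) with median-ratio scaling and Rfxank (0.0595) with quantile scaling. In LPS+CPZ against LPS+EtOH, median-ratio scaling gave -0.43 for Ifi30, -0.55 for H2-K1, -0.34 for H2-D1, -0.25 for H2-Q4, -0.0875 for H2-T23, -0.38 for Rfx5 and -0.32 for Rfxap. Quantile scaling gave 0.30 for B2m, -0.37 for Rfx5 and -0.27 for Rfxap, and for B2m TPM gave 0.0296 and the globin genes left out gave 0.0279. With one library left out, B2m ranged over -0.0920 to 0.11 and Tapbpl over -0.34 to 0.13. Of 1938 values of single genes under the alternatives, 1757 kept direction and side of the threshold.

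The labels do not say what the replicate numbers share. The deviations of samples with the same number correlated at -0.01 to 0.26, against -0.20 to 0.13 for different numbers. Not every pair was above 0.1, and not every library correlated best with its own number, so the numbers were not taken as pairs. The labels of LPS+EtOH and LPS+CPZ libraries with the same number share a stem, without saying why, so a pairing is not excluded. With the number as a block, counts of higher and lower members were 9 and 17 in LPS+CPZ against LPS, 6 and 19 in LPS+EtOH against LPS, while between the agents they were 23 and 3. With it Nlrc5 was past the threshold in LPS+EtOH against LPS (0.39, limma adjusted p = 0.0453) and in LPS+CPZ against LPS+EtOH (-0.76, limma adjusted p = 0.00213). FPKM give no depth, so counting error cannot be separated from the spread between 3 pools.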
